A study of Mus musculus with 8 samples.

Results

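The genes described are the Slit and Robo guidance genes of the mouse: the ligands Slit1, Slit2 and Slit3 and the receptors Robo1, Robo2 and Robo3. Members were the open chromatin peaks of 3 deposited lists that touched the body of one of these genes or the 10 kb on either side of it, with gene positions from GENCODE M21 on mm10 (GRCm38). This gave 286 wild-type (WT), 183 heterozygous (het) and 317 mutant peaks, or 786 of the 434365 peaks in all. The assay was ATAC-seq, a map of accessible DNA from the places where the Tn5 transposase can insert adapters, and the cells were granule neuron progenitors (GNPs) of the cerebellum at postnatal day 7.

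The groups differed in Chd7, the gene of an ATP-dependent chromatin remodeller. The labels give each sample as Chd7 wild type, Chd7 mutant or Chd7 het and the strain as C56Bl6/J. In the study's notation the WT animals were Chd7 f/f without Cre, the het animals Atoh1-Cre::Chd7 f/+ and the homozygous mutants Atoh1-Cre::Chd7 f/f, so the WT cells also carried the floxed allele. Atoh1-Cre acts in the granule cell lineage, and other cells that came through the Percoll gradient would have kept Chd7. No treatment was given. There were 3 WT, 3 mutant and 2 het libraries, and the study calls the WT and mutant replicates technical. Each list was called on the libraries of its genotype together, so no value of a single library was used and no difference below could be tested against replicate error.

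Slit proteins are secreted ligands that repel growing axons and migrating neurons. They bind the immunoglobulin domains of Robo receptors on the cell surface, and the receptor then acts on the actin cytoskeleton through adaptors and GTPase-activating proteins such as the srGAPs. In the hindbrain these signals guide commissural axons at the midline and migrating precerebellar neurons, and Slit2 was shown to affect the migration of cerebellar granule cells. Robo3 is the divergent member, needed for commissural axons to cross the midline.

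The sequences of 6 peaks are shown because the results below turn on them. Each runs from 100 bp before to 100 bp after the peak summit on the plus strand of GRCm38, read from the RefSeq assembly, and none overlaps an annotated exon. Capitals mark the motifs searched: the E-boxes CAGCTG and CAGATG, the Gli site GACCACCCA, the nuclear factor I motif TTGGCA, the AP-1 site TGANTCA and the GC box CCGCCC, on either strand.
Robo2 intron, lower in mutant, chr16:74203754-74203954: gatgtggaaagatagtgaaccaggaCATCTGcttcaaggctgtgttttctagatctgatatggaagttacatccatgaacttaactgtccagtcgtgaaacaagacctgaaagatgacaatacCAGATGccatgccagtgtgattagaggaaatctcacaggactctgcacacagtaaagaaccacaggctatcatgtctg
Robo2 intron, also lower in mutant, chr16:74313821-74314021: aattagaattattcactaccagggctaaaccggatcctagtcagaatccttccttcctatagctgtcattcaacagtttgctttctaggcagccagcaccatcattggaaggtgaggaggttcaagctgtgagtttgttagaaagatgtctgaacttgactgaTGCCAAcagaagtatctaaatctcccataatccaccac
Robo2 intron, tallest WT peak, chr16:74090053-74090253: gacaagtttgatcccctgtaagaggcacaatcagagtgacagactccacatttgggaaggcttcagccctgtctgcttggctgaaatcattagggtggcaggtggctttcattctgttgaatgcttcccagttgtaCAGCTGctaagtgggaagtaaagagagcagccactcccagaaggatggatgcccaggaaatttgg
Robo1 intron, largest mutant excess, chr16:72811554-72811754: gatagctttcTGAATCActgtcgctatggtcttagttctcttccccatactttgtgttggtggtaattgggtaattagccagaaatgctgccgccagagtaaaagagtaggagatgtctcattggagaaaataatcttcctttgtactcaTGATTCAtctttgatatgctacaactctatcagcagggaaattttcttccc
Slit2 intron, strongest WT peak without a mutant peak, chr5:48144666-48144866: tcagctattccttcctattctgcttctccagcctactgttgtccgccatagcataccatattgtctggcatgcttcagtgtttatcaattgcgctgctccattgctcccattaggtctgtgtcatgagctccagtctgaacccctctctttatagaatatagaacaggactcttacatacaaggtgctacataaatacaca
Slit3 intron, strongest mutant peak without a WT peak, chr11:35597993-35598193: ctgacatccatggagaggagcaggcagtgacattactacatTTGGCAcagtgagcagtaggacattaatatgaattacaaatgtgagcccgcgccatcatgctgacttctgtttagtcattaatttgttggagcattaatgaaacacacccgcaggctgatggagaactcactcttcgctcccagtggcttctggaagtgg
Of the Robo2 peaks shown as lower in mutant, 1 held CAGATG and 1 held TTGGCA, the tallest Robo2 peak held CAGCTG, and the Slit2 window held none of the 6 motifs. A match is a description of the letters only. The Robo1 window surrounds the WT summit and ends before the paired mutant peak, which starts at chr16:72811866, so it holds none of that peak.

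At the 286 WT summits 5 of the 6 motifs had a share whose interval includes that at all 152974 WT summits whose window could be read, and the GC box was rarer. CAGATG stood in 30.1% of member windows (Wilson 95% interval 25.1 to 35.6%) against 28.6% of all, CAGCTG in 23.1% (18.6 to 28.3%) against 23.6%, TTGGCA in 25.9% (21.1 to 31.3%) against 21.8% and TGANTCA in 6.99% (4.57 to 10.6%) against 6.24%. GACCACCCA was found in 1 member window, 0.350% against 0.280%. CCGCCC was found in 5.59% (3.47 to 8.89%) against 11.5% of all and 8.65% of the windows at genes of 100 kb or more. The median GC content was 49.3% in member windows and 51.7% in all, and its part in the GC box share was not tested. Of the 36 pairs of a gene and a motif, 3 had an interval clear of the share of all windows. TTGGCA was in 20 of 58 Robo2 windows (34.5%, 23.6 to 47.3%), and CCGCCC in 1 of 58 in Robo2 (1.72%, 0.305 to 9.14%) and 2 of 92 in Robo1 (2.17%, 0.598 to 7.58%).

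The lists came from 50394313 WT, 51030229 mutant and 30923002 het tags after filtering. The tags were 107 bp long in WT and het and 76 bp in mutant, and the het list was made with other alignment and extension settings, so genotype cannot be told apart from these differences. All 13 GNP marker genes, among them Atoh1, Zic1 and Gli1, had a peak within 1 kb of a start in each list. Starts of other cell types were also accessible: 4 of 5 endothelial markers in each list, 4 of 5 markers of Bergmann glia and astrocytes in each, 4 of 6 oligodendrocyte markers in each, 5 WT, 5 het and 4 mutant of 6 Purkinje cell markers, 3 WT, 2 het and 3 mutant of 4 interneuron markers, and 1 WT, 0 het and 1 mutant of 4 microglial markers. In such bulk samples fewer cells with an open site and less opening per cell cannot be told apart. The Y chromosome before 90 Mb held 10 WT, 1 het and 1 mutant peaks. The window of Chd7 itself held 32 WT, 23 het and 40 mutant peaks, which is no check of the deleted exon.

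All 6 genes carried accessible chromatin in GNPs, and mutant cells had as many peaks there as WT cells or more. Slit1, the shortest ligand gene at 143 kb (chr19:41600257-41743665, minus strand), had 29 WT, 19 het and 29 mutant peaks. Slit2 (chr5:47983138-48307733, plus strand) had 32 WT, 16 het and 37 mutant peaks, and Slit3 (chr11:35121224-35708507, plus strand) had 70 WT, 53 het and 84 mutant peaks. Among the receptors, Robo1 (chr16:72308306-73046095, plus strand) had 92 WT, 58 het and 97 mutant peaks and Robo2 (chr16:73891839-74411825, minus strand) had 58 WT, 33 het and 61 mutant peaks. Robo3, only 17.6 kb long (chr9:37415669-37433246, minus strand), had 5 WT, 4 het and 9 mutant peaks.

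**Figure D1:**
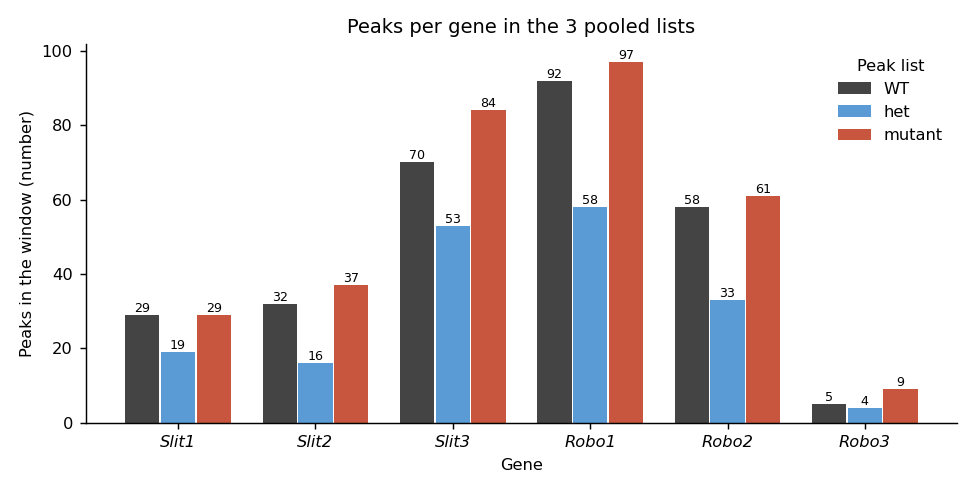
Number of peaks (y axis) in the window of each gene (x axis) in the WT, het and mutant lists, as bars. The mutant count equals the WT count in Slit1 and exceeds it in the other 5 genes, and the het count is lowest throughout.

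The ratio of mutant to WT peaks was 1.11 over the 6 genes and 1.14 over the whole lists, so the excess of mutant peaks was no larger here than elsewhere. Its size varied with the strength required. Members with a -log10 q under 5 were 106 in WT and 127 in mutant. At 5 or more they were 180 and 190, and at 10 or more 93 and 109. Over all peaks these counts were 58046 and 64825, 94938 and 109582, and 56178 and 64000. When each list was reduced to its strongest 106974 peaks, the whole lists were equal in length by construction. Among members the order then turned, with 211 WT, 183 het and 184 mutant peaks. The windows were dense in peaks: 11.7 WT peaks per 100 kb over the 6 genes, against a median of 7.26 over 2492 protein-coding genes of 100 kb or more. Slit1 was the densest of the long members with 17.7 WT peaks per 100 kb, more than 99.1% of those genes, and Slit2 the least dense with 9.29, more than 70.1%.

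Most of the peaks were intronic. In the WT list 254 of 286 summits (88.8%) lay in introns and 9 within 1 kb of a start of a coding transcript, and in the mutant list 286 of 317 lay in introns. The strengths were those of ordinary peaks: the median pileup, the number of tags over a summit, was 16 in WT and 16 in mutant both for the members and for all peaks. A -log10 q of 10 or more was reached by 93 WT members (32.5%) against 36.7% of all WT peaks, and by 109 mutant members (34.4%) against 36.7% of all mutant peaks.

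**Figure D2:**
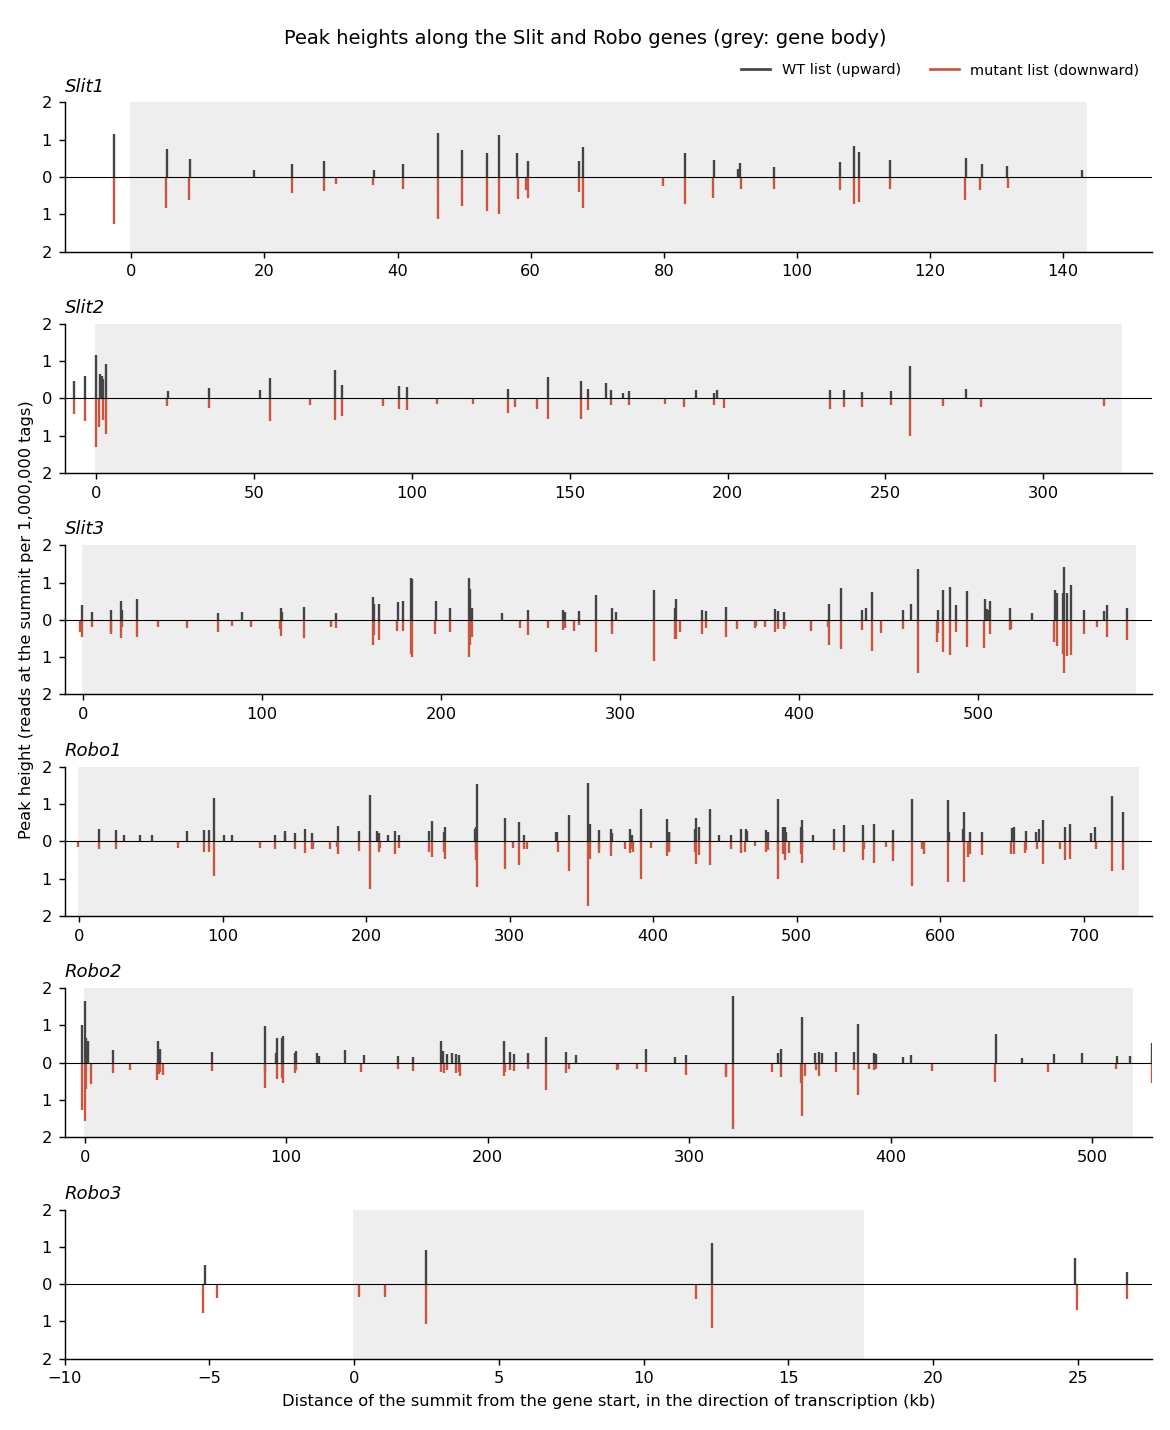
Height of every peak (y axis, tags at the summit per 1000000 tags of the list) by distance from the gene start in the direction of transcription (x axis, kb), WT upward and mutant downward, with the gene body in grey. Most tall peaks stand in both lists at the same place.

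The ligand genes differed at their starts. At Slit2 a peak covered the first start in all lists, with a pileup of 59 in WT, 67 in mutant and 113 in het, and it was the tallest WT peak of the gene. At Slit3 the start was also covered in all lists, but with a pileup of only 20 in WT, 24 in mutant and 23 in het, while the tallest WT peak was intronic, 548 kb into the gene, with 72 in WT, 73 in mutant and 116 in het. At Slit1 no list had a peak within 1 kb of a coding start. The peak nearest the gene start lay further upstream, chr19:41745790-41746816 in WT, with 58 in WT, 64 in mutant and 97 in het. It was the tallest Slit1 peak of the mutant and het lists. The tallest WT peak of Slit1 lay in an intron 46.1 kb from the start, with 60 in WT, 57 in mutant and 73 in het. Het pileups come from tags extended to 200 bp, against 90 bp in WT and 88 bp in mutant, and are given beside the others without a comparison of these pileups.

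Both Slit2 and Slit3 host in an intron a gene for miR-218, a microRNA known to target Robo1. The mature miR-218-5p of both hairpins, from RefSeq, is printed with its seed, bases 2 to 8, in capitals.
miR-218-5p: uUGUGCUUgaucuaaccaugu
No peak touched either hairpin in any list. Mir218-1 in Slit2 (chr5:48223942-48224051) had its nearest peak 1.57 kb away in WT, with a pileup of only 9, and 1.57 kb away in mutant, with 11. Mir218-2 in Slit3 (chr11:35616816-35616925) lay 1.97 kb from a taller peak found in all lists, with a pileup of 39 in WT, 37 in mutant and 46 in het.

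The receptor genes differed in the peaks at their starts too. In Robo1, which has several promoters, the start of the longest transcript, Robo1-205, had only a mutant peak with a pileup of 8, close to the weakest in that list. The start of Robo1-206, 255 kb further on, had 20 in WT, 24 in mutant and 29 in het. A further start, 355 kb from the gene start, carried the tallest peak of the gene, with 79 in WT, 88 in mutant and 118 in het. In Robo2 the main start region was covered by a peak of 83 in WT, 79 in mutant and 139 in het. Beside it, 2 smaller WT peaks lay within 1 kb of coding starts: one with 34 overlapped a mutant peak with 36, and the other, with 30, had no overlapping mutant peak. Further inside Robo2, a WT peak with 13 near the start of Robo2-212 had no mutant peak, and a mutant peak with 12 near an internal start 478 kb into the gene had no WT peak. RefSeq also places Robo2 starts 681, 690 and 1035 kb upstream of this gene body, outside the window. All lists had a peak within 1 kb of the first and the last of these, and none had one at the start 690 kb upstream. At Robo3 the start of the shorter transcript had 46 in WT, 54 in mutant and 59 in het, while near the start of Robo3-202 there were 2 mutant peaks, with 18 each and summits 0.153 and 1.07 kb inside the gene, and no WT or het peak. The Robo3 window reaches into Robo4, a receptor of endothelial cells, which held 2 of its WT, 1 of its het and 2 of its mutant peaks.

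Which peaks were found in 1 genotype alone was asked by overlap of at least 1 bp. Of the WT members, 60 of 286 had no mutant peak (20.98%, Wilson 95% interval 16.7 to 26.1%, peaks taken as independent), against 22.8% of all WT peaks. Of the mutant members, 86 of 317 had no WT peak (27.1%, 22.5 to 32.3%), against 30.7% of all mutant peaks. Both intervals include the share over all peaks. For WT the order turned under other settings: with the lists reduced to equal length, 55 of 211 WT members had no mutant peak (26.1%) against 19.6% of all, and where each list kept only peaks whose -log10 q reached 5 it was 16.7% against 13.7%.

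**Figure D3:**
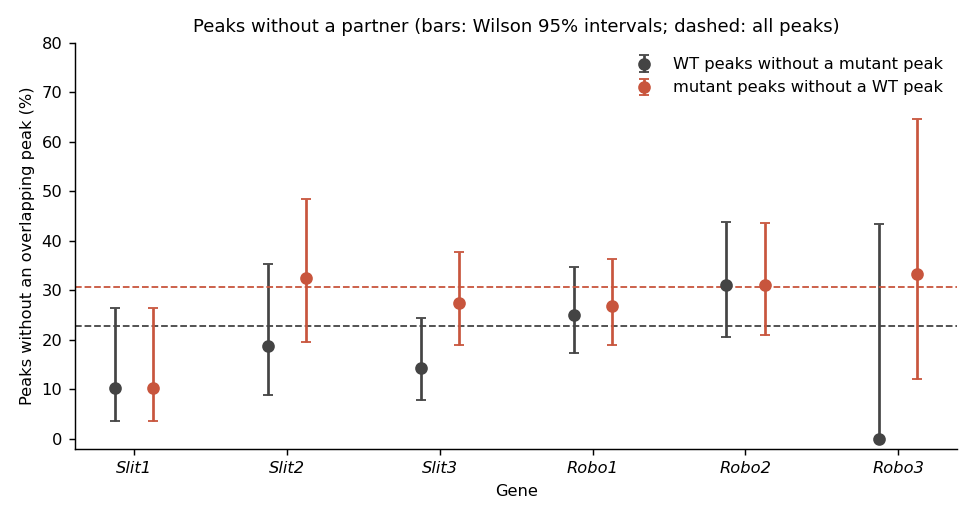
Share of peaks without an overlapping peak of the other list (y axis, %) by gene (x axis), WT peaks in grey and mutant peaks in red, with Wilson 95% intervals and dashed lines at the share over all peaks of the list. Slit1 has the lowest shares of the 5 long genes and Robo2 the highest WT share, and of all the intervals only that of the Slit1 mutant peaks, 3.58 to 26.4%, lies clear of its dashed line.

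By role, for the 3 Slit genes 19 of 131 WT peaks had no mutant peak (14.5%, 9.49 to 21.5%), and for the 3 Robo genes 41 of 155 (26.5%, 20.1 to 33.9%), against 22.8% of all WT peaks. The Robo interval includes the share over all peaks, the intervals of ligands and receptors overlap, and their difference was not tested. Slit1 had the lowest shares of the long genes, 3 of 29 (10.3%, 3.58 to 26.4%) in each direction. Slit2 had 6 of 32 WT and 12 of 37 mutant peaks without a partner, and Slit3 10 of 70 and 23 of 84. Robo1 had 23 of 92 WT and 26 of 97 mutant peaks without a partner, and Robo2 18 of 58 (31.0%, 20.6 to 43.8%) and 19 of 61. All 5 WT peaks of Robo3 had a mutant peak, and 3 of its 9 mutant peaks had no WT peak.

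Peaks found in 1 list alone were mostly weak. Among WT members with a -log10 q under 5, 48 of 106 (45.3%) had no mutant peak, against 12 of 180 (6.67%) of those at 5 or more and 2 of 93 (2.15%) of those at 10 or more. Over all WT peaks these shares were 50.7%, 5.78% and 0.456%. Of the 109 mutant members at 10 or more, 1 had no WT peak (0.917%), against 1.21% of all. The strongest WT peak with no mutant peak within 300 bp lay in a Slit2 intron, chr5:48144681-48144806, with a pileup of 21 in WT and 13 in het. The next were in Robo1 (chr16:73016117-73016260, 19 in WT and 17 in het) and Robo2 (chr16:74282696-74282845, 17 in WT, no het peak). A further pair in Robo1, chr16:72383770-72384029 with 14 and chr16:72977309-72977536 with 17, completed the first 5. In the other direction the strongest was in a Slit3 intron, chr11:35598004-35598160, with 30 in mutant and 28 in het. It was followed by Robo1 chr16:72897079-72897239 with 17 in mutant and 14 in het, Slit3 chr11:35567079-35567308 with 18, Robo1 chr16:72967564-72967678 with 16 and Robo2 chr16:74056375-74056479 with 28 in mutant, none of these 3 with a het peak. So the het list held a peak at 2 of the 5 WT sites and at 2 of the 5 mutant sites.

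The het list was shorter and its peaks were mostly a subset of the others. Of 286 WT members, 120 had no het peak (42.0%, 36.4 to 47.7%), against 36.9% of all WT peaks, and of 317 mutant members 141 had none (44.5%, 39.1 to 49.98%), against 41.3%. Of 183 het members, 21 had no WT peak (11.5%, 7.63 to 16.9%), against 13.3% of all het peaks, and 15 had no mutant peak (8.20%, 5.03 to 13.1%), against 10.7%. Slit2 stood lowest in het coverage among the long genes, with 19 of its 32 WT peaks without a het peak.

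Peaks of all lists within 300 bp of each other were merged into 345 regions. All 3 lists shared 154 of them (44.6%, against 45.7% of all 190582 regions), 59 were WT and mutant, 61 were mutant alone (17.7% against 20.1%) and 47 were WT alone (13.6% against 13.3%). WT and het without mutant made up 5 regions (1.45% against 1.66%), and het and mutant without WT 11 (3.19% against 3.03%). Robo2 held 16 of the 47 regions seen in WT alone, 21.9% of its 73 regions, and Robo1 held as many, 14.5% of its 110.

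In the heights of shared peaks Robo2 had the lowest mutant values relative to WT of the 6 genes. Height was the pileup per 1000000 tags of the list, the mutant value was that of the tallest overlapping mutant peak, and the log2 ratio of mutant to WT was centred on its median over all 118098 shared WT peaks, which was 0.075 (1.05-fold) before centring. Over the 226 shared peaks of the 6 genes the centred median was -0.09 (95% order-statistic interval -0.09 to -0.01). This is the value of a pair with the same pileup in both lists, and without centring it was -0.018, against 0.075 for all. Of the 226 shared peaks, 19 were at least 1.5-fold lower in mutant (8.41%, 5.45 to 12.8%), against 5.1% of all shared peaks. At least 1.5-fold higher were 5 (2.21%, 0.949 to 5.07%), against 6.22%. Robo2 supplied 11 of the 19 lower peaks and none of the 5 higher ones.

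**Figure D4:**
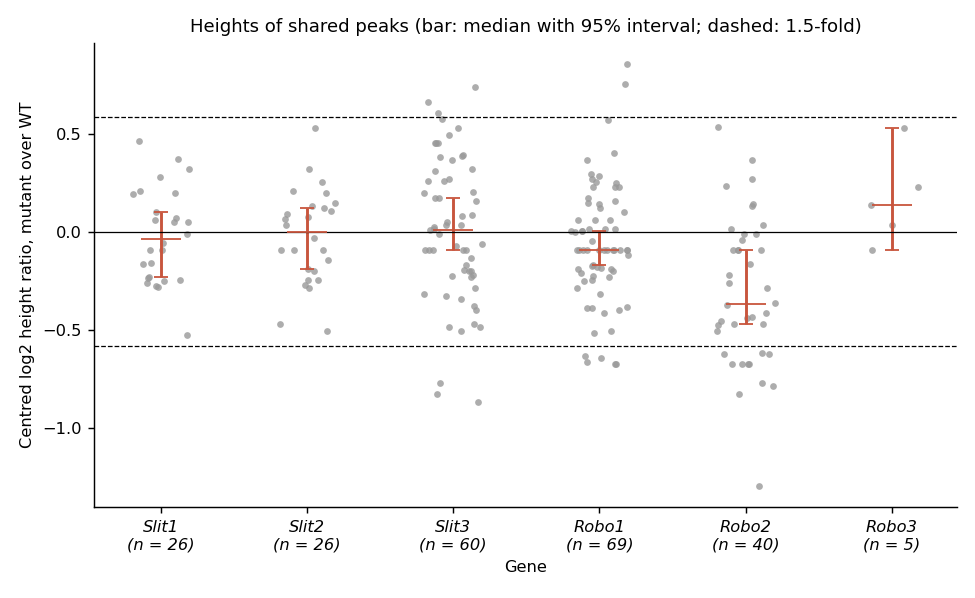
Centred log2 height ratio of mutant over WT (y axis) for each shared peak (points) by gene (x axis), with the median and its 95% interval in red and dashed lines at 1.5-fold. The medians of Slit1, Slit2, Slit3, Robo1 and Robo3 lie between -0.09 and 0.14, and that of Robo2 at -0.37.

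For the ligands the mutant and WT heights were close. The centred median was -0.03 (-0.23 to 0.10) over 26 shared peaks of Slit1, 0.00 (-0.19 to 0.12) over 26 of Slit2 and 0.01 (-0.09 to 0.17) over 60 of Slit3. In Slit1 and Slit2 0 shared peaks differed by 1.5-fold in either direction, and in Slit3 3 were lower and 3 higher.

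For the receptors, Robo1 had a centred median of -0.09 (-0.17 to 0.01) over 69 shared peaks, again the value of equal pileups, with 5 lower and 2 higher by 1.5-fold. Robo3 had 0.14 (-0.09 to 0.53) over 5. Robo2 had -0.37 (-0.47 to -0.09) over 40, a 0.775-fold height at the median, with 32 peaks below 0 and 8 above. Summed over the 40 shared peaks of Robo2 the pileup was 1044 in WT and 930 in mutant, a centred 0.835-fold (counting interval 0.764 to 0.913). At least 1.5-fold lower were 11 of its 40 shared peaks (27.5%, 16.1 to 42.8%), and 0 were 1.5-fold higher. Of 639 protein-coding genes with 20 or more shared peaks none had a lower median than Robo2. The next were Cdh12 at -0.29, Ptprk at -0.27 and Lrp1b at -0.26, the middle 90% of the genes lay between -0.18 and 0.15, and 2 genes had a larger share of lower peaks. By the fold enrichment of the peak caller in place of height, the Robo2 median was -0.23 and only 7.5% of its peaks were 1.5-fold lower, against 3.13% of all.

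The lower Robo2 peaks were intronic. All 11 lay between 89.6 and 452 kb from the start. Among them were chr16:74203725-74204101, with 30 in WT, 18 in mutant and 30 in het, and chr16:74313841-74314125, with 34 in WT, 21 in mutant and 31 in het. The counting intervals of the mutant to WT ratio at these peaks, 0.311 to 1.10 and 0.336 to 1.08, both include 1. Taller ones among the 11 were at 89.6 kb, with 49 in WT, 34 in mutant and 48 in het, and at 452 kb, with 39 in WT, 27 in mutant and 39 in het. Of the others, 6 had pileups of 13 to 33 in WT and 9 to 22 in mutant.

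Some of the tallest Robo2 peaks did not show this, though strong peaks as a class did. The tallest, chr16:74089706-74090316 in an intron 322 kb from the start, had 90 in WT and 90 in mutant. An intronic peak 356 kb from the start had 62 in WT and 73 in mutant, and the start region 83 and 79. The 16 shared Robo2 peaks with a WT -log10 q of 10 or more had a centred median of -0.41. Of those 16, 14 lay below 0 and 6 (37.5%) were at least 1.5-fold lower. The 24 with a WT -log10 q under 10 had -0.33, with 18 below 0 and 5 (20.8%) lower. The 35 shared intronic peaks of Robo2 had a centred median of -0.43, and the 65 of Robo1 one of -0.09. Where both peaks of a pair had a -log10 q of 5 or more, the Robo2 median was -0.27 over 23 pairs, centred on all such pairs. The part of the tag length, 107 bp in WT and 76 bp in mutant, in the Robo2 values was not tested. Along the gene the median was -0.40 in the first 200 kb and -0.39 in the rest, but it varied within them: in bins of 100 kb that touch the gene and hold 6 or more shared peaks it ran from -0.47 to -0.05, and the 3 shared peaks at the start or upstream of it had -0.01. Outside the window the median was 0.12 over the 47 shared peaks in the 990 kb beyond the start and -0.05 over the 37 between Robo2 and Robo1. Of these, 5 (10.6%) and 3 (8.11%) were 1.5-fold lower in mutant. WT peaks without a mutant peak were more frequent there than in Robo2, 38 of 85 (44.7%) and 26 of 63 (41.3%).

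**Figure D5:**
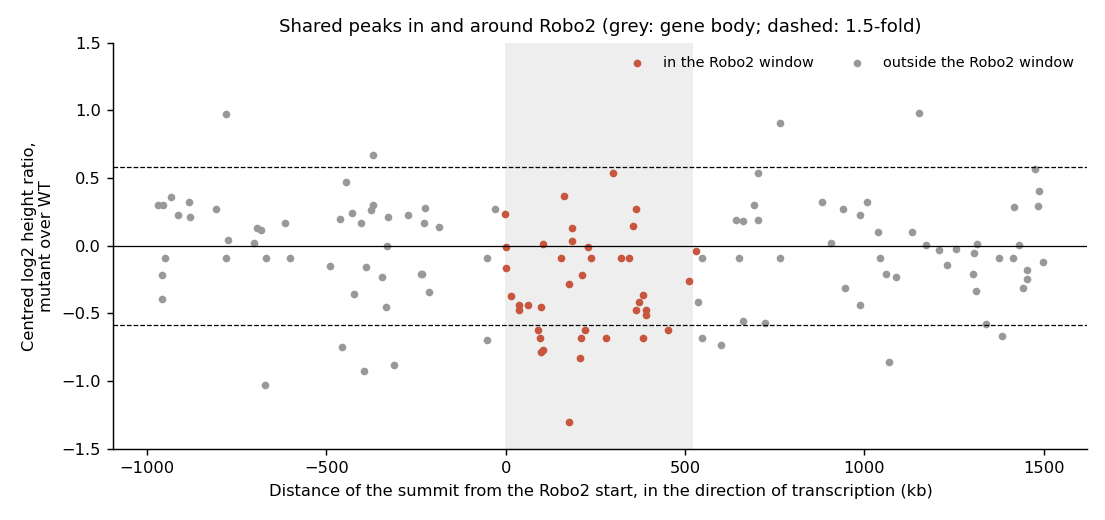
Centred log2 height ratio of mutant over WT (y axis) of shared peaks by distance from the Robo2 start (x axis, kb, positive in the direction of transcription), red in the Robo2 window and grey in the 1 Mb on either side. Of the 40 red points 32 lie below 0, while the grey points lie on both sides of it.

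Each peak was also ranked within its list by -log10 q, as a percentage of lists that differ in length. The median rank change of Robo2 from WT to mutant was -6.33 percentage points (-15.1 to 0.70), with 26 peaks down and 14 up, against 2.28 for all shared peaks, and its interval includes 0. It was -2.43 against 1.91 with 50% reciprocal overlap and -1.09 against 1.66 where both peaks had a -log10 q of 5 or more. As first ranked, the change was 2.81 for Slit1, 1.23 for Slit2, 4.64 for Slit3 and 1.14 for Robo1. Heights of het relative to WT, given as a description since the tag extension differed, were centred on their own median over all shared peaks. Robo2 had -0.18 (-0.33 to 0.08) over 29 peaks, Slit2 -0.26 (-0.67 to 0.18) over 13 and Robo1 -0.07 (-0.19 to 0.13) over 53, with intervals that include 0. In Slit2 6 of the 13 peaks (46.2%) were at least 1.5-fold lower in het, in Robo2 3 of 29 (10.3%) and in Robo1 5 of 53 (9.43%), against 6.77% of all.

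Other pronounced differences were scattered over Robo1 and Slit3. After peaks of Robo2, the largest deficits among strong shared peaks, those whose -log10 q reached 10 in WT or mutant, were in Slit3, chr11:35296912-35297087, with 24 in WT and 15 in mutant, and in Robo1, chr16:72717450-72717750, with 30 in WT, 20 in mutant and 30 in het. The largest excesses were in Robo1, chr16:72811587-72811878 with 15 in WT and 29 in mutant and chr16:72875353-72875714 with 15 and 27. At the first, the paired mutant peak, chr16:72811866-72812187, overlapped only the end of the WT peak and missed its summit at 72811654. With the partner of nearest summit instead, 1.45% of shared Robo1 peaks were 1.5-fold higher, against 2.90%. Slit3 had the next 3, chr11:35704431-35704721 with 16 and 27, chr11:35451727-35451983 with 16 and 26, and chr11:35537506-35537738 with 22 and 35. The counting intervals of these ratios all include 1. The 5 largest excesses named here lay in introns 331 to 583 kb from the gene starts. They are not the same set as the 5 shared peaks at least 1.5-fold higher after centring. In place of chr11:35537506-35537738 that set holds a weaker Slit3 peak 75.8 kb from the start, with 9 in WT and 16 in mutant.

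A list of 30 further genes of the pathway was described the same way, covering the intracellular partners of Robo, Slit-binding proteoglycans and other guidance molecules. Their windows held 342 WT peaks, of which 59 had no mutant peak (17.3%, against 22.8% of all), and 379 mutant peaks, of which 87 had no WT peak (23.0%, against 30.7%). Of their 283 shared peaks 16 were 1.5-fold lower in mutant (5.65%, against 5.1% of all) and 23 higher (8.13%, against 6.22%). More mutant than WT peaks were found in 19 genes, fewer in 8 and equal numbers in 3. Among the 10 genes with 10 or more WT peaks the share without a mutant peak was highest in Nck2, an SH2/SH3 adaptor, with 10 of 23, and Enah, an actin regulator, with 3 of 12. It was lowest in Plxna1, a semaphorin receptor, with 1 of 12, and Srgap3, a GTPase-activating partner of Robo, with 3 of 34. Robo4 had 3 WT and 6 mutant peaks, and all 3 WT peaks had a mutant partner.

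Genes with the most similar numbers were sought among 937 protein-coding genes with 20 or more WT peaks, by Euclidean distance over the log2 ratios of mutant and het to WT peak number and the share of WT peaks lacking a mutant partner, over the 3 lists. The 2 nearest were Afap1 and Sgms1 for Slit1, Synpo2 and Ccdc171 for Slit2, Cacna2d2 and Poc1b for Slit3, Srgap2 and Kcnab1 for Robo1, and Gm42416 and Dpyd for Robo2. The nearest distances ran from 0.0154 for Slit3 to 0.0509 for Robo2.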

How the data were processed

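ATAC-seq was performed by the authors on GNPs of 3 Chd7 genotypes. Per the file headers, MACS2 2.1.0.20150731 called one list of peaks per genotype on pooled libraries, without a control, at a q-value cutoff of 0.05. The submitters' processing notes also name Trim Galore 0.4.1, STAR 2.5.0b and Picard 1.139 and the build mm10. The study's methods describe bowtie with shifted reads, whereas the WT and mutant headers show a STAR folder, no shift and extensions of 90 and 88 bp, and the het header a bowtie folder and an extension of 200 bp. The deposited values are the pileup signal at each summit, not scaled to depth, the fold enrichment, a ratio to the local background, and the -log10 q value. All columns had a group, and 0 were left out.

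Peaks were assigned to gene windows, paired by overlap of 1 bp and described by number, share and height, in Python 3.11.15 with pandas 2.3.3, numpy 2.4.6 and scipy 1.17.1. Pairing was tested on simulated data. Shares have Wilson intervals, medians binomial order-statistic intervals and pileup ratios exact intervals, at 95%. The intervals of shares and medians take the peaks as independent, and those of pileup ratios cover counting error of tags only. None covers variation between libraries. No test was made, since no list has replicates. Peaks were named by rule: those within 1 kb of a start, the tallest per gene, the 5 largest deficits and excesses in mutant among shared peaks whose -log10 q reached 10 in WT or mutant, and the 5 strongest without a partner within 300 bp. Of the peaks this rule takes in, 1 of Robo2 and 1 of Slit1 are not reported here. The members and lists were chosen with earlier results of these data known. The descriptions of Robo2 by region, strength class, het height and order among genes were added after its values were seen. The lists of markers and pathway genes were set by hand from general knowledge. Motifs were searched from 100 bp before to 100 bp after each summit.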

Additional observations from a re-analysis of the deposited data

How the results depend on the processing

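No paired analysis was possible because each list was called on libraries pooled by genotype, and leaving out a library was not possible for the same reason. Shares of peaks without a partner moved most. They are given in the order WT without mutant, mutant without WT, WT without het, mutant without het, het without WT and het without mutant. With 50% reciprocal overlap they were 33.6%, 40.1%, 51.4%, 55.8%, 24.0% and 23.5%, against 35.9%, 43.8%, 49.9%, 54.5%, 28.4% and 25.8% over all peaks. With the query peaks alone at a -log10 q of 5 or more they were 6.67%, 11.6%, 21.1%, 21.6%, 4.83% and 1.38%, against 5.78%, 11.2%, 15.8%, 20.7%, 3.65% and 2.47%. With both lists at 5 or more, mutant without WT was 20%, WT without het 27.8% and mutant without het 27.9%, against 24.0%, 22.5% and 28.9%. With equal list lengths all 6 were 26.1%, 14.1%, 28.0%, 19.6%, 18.03% and 20.8%, against 19.6%, 18.6%, 20.7%, 19.8%, 22.4% and 22.3%, so that WT without mutant moved from below to above the share over all peaks, as it did with both lists at 5 or more (16.7% against 13.7%). The share of shared peaks 1.5-fold lower in mutant was 3.10% by fold enrichment and, an alternative chosen after seeing the data, 4.30% without Robo2. In all, 55 values for the 6 genes, including the 26.1% and 16.7% of WT without mutant, stayed within the interval of the reported value. The Robo2 median stayed below 0 under all 8 alternatives run, from -0.39 to -0.23, and that of the mutant side pairing, added after seeing the data, was -0.38. Most single pileups were under 30 tags, so few single peaks could be told from counting error.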
